A study of Homo sapiens with 12 samples.

Results

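The comparison asked what endothelin-1 changed in human cardiomyocytes given a neprilysin inhibitor: 3 cultures given 10 nM endothelin-1 together with 16 µM sacubitrilat were set against 3 cultures given 16 µM sacubitrilat alone, all for 48 h. These 6 libraries were chosen by their sample titles and are 6 of the 12 in the series. The other groups are 3 cultures given 10 nM endothelin-1 alone and 3 given vehicle (DMSO), and they are used below as the matching comparison without the inhibitor. All cells were cardiomyocytes differentiated from WTC-mEGFP-ACTN2-cl85, an established induced pluripotent stem cell line and a single clone, in which 1 allele of the sarcomeric alpha-actinin gene ACTN2 ends in a green fluorescent tag. They had been enriched in lactate medium before treatment. Each library came from its own culture. The labels conflict at 1 point: the last description line of the 3 sacubitrilat libraries names endothelin-1, and that of the 3 endothelin-1 libraries names sacubitrilat. Titles, library names and the treatment field give the same groups, which are followed here.

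Endothelin-1 is a vasoconstrictor peptide that cardiomyocytes bind mainly through the ETA receptor, encoded by EDNRA. The receptor couples to Gq, and the calcium, protein kinase C and calcineurin signals that follow are a classical trigger of hypertrophic growth, whose textbook readouts are the natriuretic peptides NPPA and NPPB, skeletal alpha-actin (ACTA1) and beta-myosin heavy chain (MYH7). Sacubitrilat is the active form of sacubitril. It inhibits neprilysin, encoded by MME, a membrane peptidase that degrades natriuretic peptides and also endothelin-1.

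The libraries hold counts from the 3′ ends of poly(A) RNA, and their depth differed by group. Totals were 87281, 158791 and 134950 counts with both compounds, against 1361536, 1268308 and 1953122 counts with sacubitrilat alone. Summed over replicates the sacubitrilat libraries held 12.03 times as many counts. A single count was worth 6.30 to 11.5 CPM (the authors' unit, counts scaled to a common library total) with both compounds and less than 1 CPM with sacubitrilat alone. Every library with both compounds was shallower than every sacubitrilat library, so depth and the addition of endothelin-1 cannot be told apart by group. Replicate 1 with both compounds, the shallowest of the 6, stood apart from its 2 partners: its counts differed from theirs by a chi-square per degree of freedom of 5.31 and 7.94, against 2.17 between replicates 2 and 3, and 1.17 to 1.73 among the sacubitrilat libraries. Results are therefore given beside a fit on libraries reduced by random draw to 80000 counts each, and beside the levels in the 3 vehicle libraries, which shared 1 treatment and differed 3.92-fold in total (316932, 80844 and 170644 counts).

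The cells carried cardiac identity markers. The summed level of 8 cardiomyocyte markers (TNNT2, MYH6, MYH7, ACTN2, MYL7, TTN, NKX2-5 and ACTC1) was 15372, 11948 and 9811 CPM with both compounds, against 18487, 16981 and 18177 CPM with sacubitrilat alone, and none of the 8 was at 0 in either group. Most of the difference in this sum was ACTC1, while MYH7 and TNNT2 of the same set were called higher, as described below. The 6 fibroblast markers (PDGFRA, DCN, LUM, COL1A1, COL3A1 and DDR2) summed to 1426, 3753 and 3587 CPM with both compounds, against 6260, 6235 and 6598 CPM with sacubitrilat alone. The 4 smooth muscle markers (MYH11, ACTA2, CNN1 and TAGLN) summed to 871, 1896 and 2219 CPM with both compounds, against 2746, 2697 and 2745 CPM with sacubitrilat alone. A longer list of 12 smooth muscle genes summed to the opposite order, 9487, 7837 and 8651 CPM with both compounds, against 5667, 5649 and 5658 CPM with sacubitrilat alone. With both compounds most of that sum was MYL9, described below, but with sacubitrilat alone it was not. In the vehicle libraries the cardiomyocyte sum was 14246, 6438 and 12576 CPM, the fibroblast sum 4452, 1404 and 3282 CPM and the sum of the 4 smooth muscle markers 1985, 461 and 1589.6 CPM, each lowest in the shallowest library. The endothelial markers CDH5 and KDR had 0 counts with both compounds. Together with PECAM1 they had 12, 12 and 15 counts in the deeper sacubitrilat libraries, so these zeros do not show absence. A longer list of 13 endothelial genes summed to 103, 58.3 and 111 CPM with both compounds, against 73.4, 74.1 and 76.3 CPM with sacubitrilat alone. The pluripotency markers POU5F1, NANOG and LIN28A together had at most 2 counts in any library with both compounds. With sacubitrilat alone they had 8.5, 9.5 and 17.3 counts. In CPM this was 11.5, 3.15 and 14.8 with both compounds, against 6.24, 7.49 and 8.87 with sacubitrilat alone. So few counts show neither absence nor a lower level. In these bulk samples fewer cells of a type and less RNA per cell cannot be told apart.

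A set of intestinal, epithelial and immunoglobulin transcripts behaved unlike the cardiac genes. PIGR, which encodes the polymeric immunoglobulin receptor of mucosal epithelium, had 22, 53 and 37 counts with both compounds, against 23.3, 28 and 47.5 counts with sacubitrilat alone, although the sacubitrilat libraries were far deeper. Over all 12 libraries PIGR stayed between 22 and 53 counts, EPCAM (an epithelial adhesion molecule) between 10 and 22, IGKC (the immunoglobulin kappa constant region) between 14 and 36, LGALS4 (an intestinal galectin) between 10 and 24, and ZNF121 (a zinc finger gene) between 103 and 176. ACTC1, cardiac alpha-actin, had more counts in the deeper libraries instead, with 27, 123 and 85 counts with both compounds, against 7821, 6381 and 11893.3 counts with sacubitrilat alone. This difference was larger than that of the totals. A gene with the same count at every depth is high in CPM wherever a library is shallow, and these genes were among the largest increases below.

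**Figure D1:**
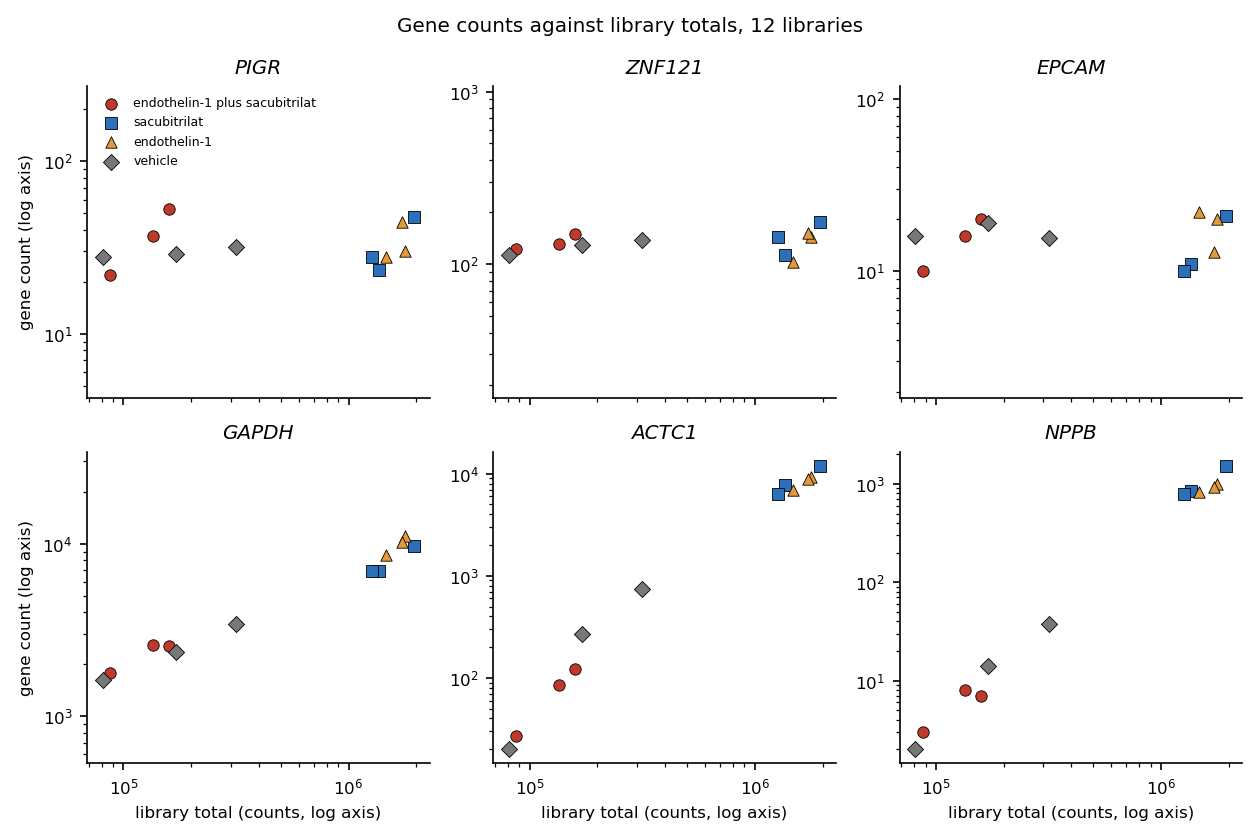
Counts of 6 genes (log axis) against library totals (log axis) in the 12 libraries, 3 per group, each point 1 library. PIGR, ZNF121 and EPCAM had near-equal counts in all libraries, while GAPDH, ACTC1 and NPPB had more counts in the deeper libraries.

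Of 11203 genes tested with edgeR, 3925 (35%) differed at an adjusted p under 0.05, of which 1929 (17.2%) were higher and 1996 (17.8%) lower with both compounds, and the median log2 fold change over all tested genes was -0.25. With every library at 80000 counts, 1853 genes could be tested and 801 (43.2%) were called, 453 (24.4%) higher and 348 (18.8%) lower. A total of 777 genes were called in both fits, all of them in the same direction. The thinned counts are a part of the same counts, so this shared direction is not a separate check. Thinning evens the totals but leaves any difference in composition that moves with depth. PIGR and ZNF121, with near-equal counts in every library, were called in both fits. Depth within the vehicle group moved with the same genes: 1321 of the 1929 higher genes (68.5%) had their highest vehicle level in the shallowest vehicle library, against 41.7% of all tested genes, and 1123 of the 1996 lower genes (56.3%) had their lowest level there, against 38.1% of all tested genes. The part of depth in the calls was not tested. Without the 2 libraries under 100000 counts, replicate 1 with both compounds and vehicle replicate 2, 3427 of 13137 genes (26.1%) were called.

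**Figure D2:**
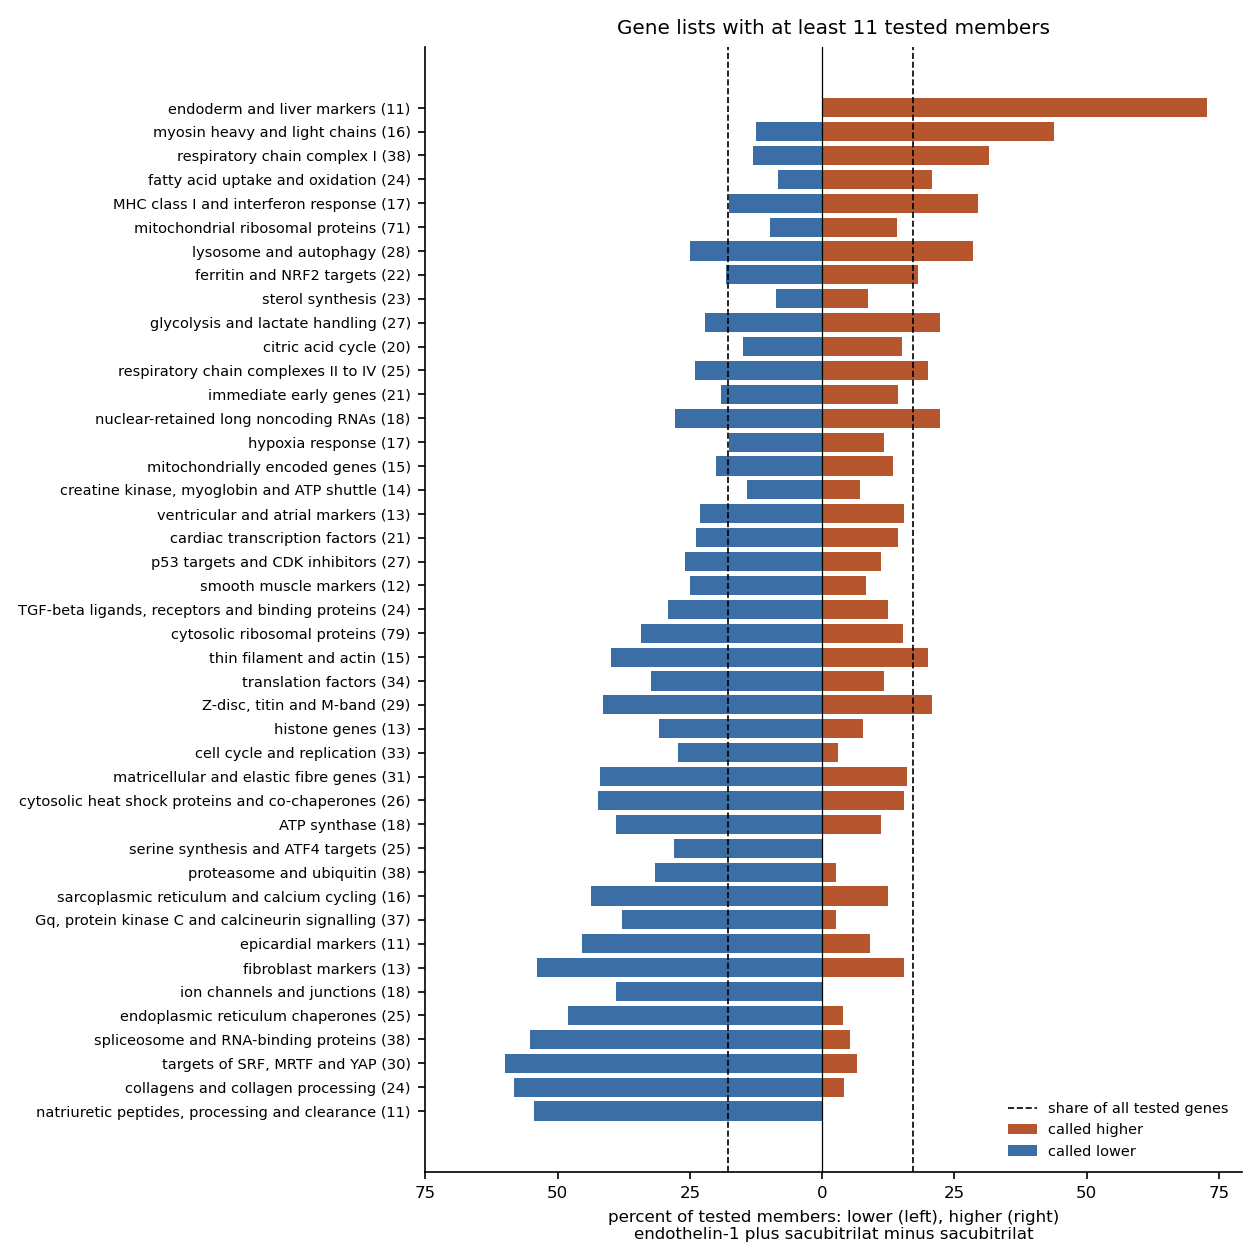
Percent of tested members of 43 gene lists called lower (left) and higher (right) with both compounds relative to sacubitrilat alone, with the number of tested members in brackets and the share of all tested genes as dashed lines (17.2% higher, 17.8% lower). Natriuretic peptide, collagen, SRF and spliceosome genes lay to the lower side, and endoderm markers, myosins and complex I to the higher side.

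Natriuretic peptide genes were lower, not higher, where endothelin-1 had been added to sacubitrilat. NPPB, which encodes B-type natriuretic peptide (ENSG00000120937, chr1:11857464-11858931, minus strand, GRCh38), had 34.4, 44.1 and 59.3 CPM with both compounds, against 619, 629.6 and 779.8 CPM with sacubitrilat alone. All 3 libraries with both compounds lay below all 3 with sacubitrilat, a log2 fold change of -3.76 (SE 0.32, edgeR adjusted p = 3.01e-11). The 18 counts with both compounds and 3164 with sacubitrilat gave a ratio of summed CPM of 0.0684 (95% interval 0.0405 to 0.108, counting error only). At 80000 counts per library its log2 fold change was -3.37 (adjusted p = 5.37e-06). The vehicle libraries held 119.9, 24.7 and 82.0 CPM, again lowest where the library was shallowest, and all 3 values were below those with sacubitrilat alone.

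NPPA, the gene of atrial natriuretic peptide, had 516, 1077 and 919 CPM with both compounds, against 1682, 1566 and 1684 CPM with sacubitrilat alone. The groups did not overlap, and the difference was smaller (log2 fold change -0.86, SE 0.31, adjusted p = 0.0274). NPPA lost its call in 13 of the alternative fits, with adjusted p from 0.0514 to 0.209, among them those at 80000 counts (-0.66 (adjusted p = 0.0922)) and those without replicate 1 with both compounds. Of the 11 tested genes of a list for natriuretic peptides, their processing and clearance and cyclic GMP signalling, 6 fell and 0 rose, with a median log2 fold change of -1.70. Besides the 2 peptides these were CORIN and FURIN, the proteases that cleave the peptide precursors (adjusted p = 0.000849 and 0.0011), GUCY1A1, a subunit of the nitric oxide receptor guanylate cyclase (log2 fold change -1.70, SE 0.30, adjusted p = 3.45e-05), and PRKG1, the cyclic GMP-dependent kinase (log2 fold change -2.17, SE 0.66, adjusted p = 0.00932). CORIN had 3 counts in all with both compounds, against 256 with sacubitrilat alone, a ratio of 0.141 (0.0289 to 0.417, counting error only). FURIN had a log2 fold change of -1.66 ± 0.39 (± SE). Of these 6, 5 were also lowest in the shallowest vehicle library. After thinning 3 of the 11 could be tested, and 2 were called, both lower (NPPB and GUCY1A1). Among the natriuretic peptide receptor genes NPR1 did not pass at full depth (log2 fold change -2.13, adjusted p = 0.141), and NPR2 and NPR3 were not tested.

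The receptor for the added peptide fell as well. EDNRA had 45.8, 18.9 and 14.8 CPM with both compounds, against 98.4, 102 and 107 CPM with sacubitrilat alone, with no overlap (log2 fold change -2.03, SE 0.44, adjusted p = 0.000444). At 80000 counts its log2 fold change was -1.53 (adjusted p = 0.0526), which did not pass. For endothelin-1 itself, encoded by EDN1, there were 2 counts with both compounds and 79 with sacubitrilat alone, a ratio of 0.305 whose counting interval ran from 0.0362 to 1.14, and EDNRB, the ETB receptor, had 1 count and 10 counts. MME, the gene of the inhibited peptidase, had 3 counts with both compounds and 21 with sacubitrilat alone, a ratio of 1.72 (0.328 to 5.75), so no difference was detectable at this depth. Of 5 tested members of the endothelin and angiotensin system 2 fell, EDNRA and the endothelin-converting enzyme gene ECE1 (log2 fold change -1.20, SE 0.39, adjusted p = 0.0148), and AGT, which encodes angiotensinogen, rose (log2 fold change 2.50, SE 0.63, adjusted p = 0.00206). ECE1 lost its call without sacubitrilat replicate 3 (adjusted p = 0.0572) and AGT without replicate 2 with both compounds (adjusted p = 0.0642). AGT had 11.5, 31.5 and 29.6 CPM with both compounds, against 3.67, 3.94 and 6.14 CPM with sacubitrilat alone.

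**Figure D3:**
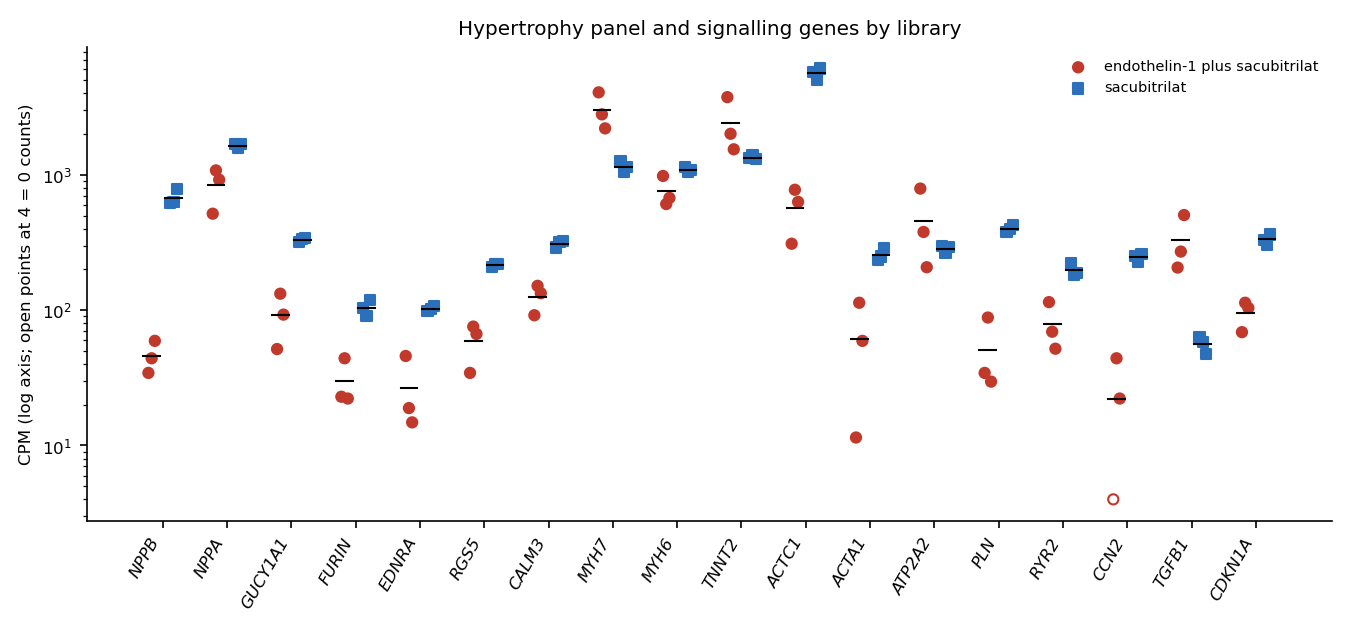
Level in CPM (log axis) of 18 hypertrophy and signalling genes in the 3 libraries with both compounds (circles, left) and the 3 with sacubitrilat alone (squares, right), with the mean of each group as a black line and an open point for a library at 0 counts. NPPB, ACTC1 and CCN2 were lower in every library with both compounds, and MYH7 and TGFB1 higher in every one.

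Genes of the Gq, protein kinase C and calcineurin pathway fell more often than they rose, 14 of 37 tested lower against 1 higher, with a median of -0.69, and at 80000 counts 0 rose and 4 fell of 7. RGS5, a regulator that shortens G protein signalling, had 34.4, 75.6 and 66.7 CPM with both compounds, against 209, 220 and 219 CPM with sacubitrilat alone. The groups were far apart (log2 fold change -1.70, SE 0.30, adjusted p = 3.45e-05), and the depth-matched value was -1.82 (adjusted p = 0.00147). Calmodulin transcripts followed: CALM3 had 91.7, 151 and 133 CPM with both compounds, against 290.1, 319 and 323 CPM with sacubitrilat alone (log2 fold change -1.17, SE 0.23, adjusted p = 0.000185), and CALM2 120.3, 148 and 163 CPM with both compounds, against 339, 373 and 409 CPM with sacubitrilat alone (log2 fold change -1.27, SE 0.23, adjusted p = 3.9e-05). CALM2 did not pass in either draw of 80000 counts (adjusted p = 0.0604 and 0.159). MEF2A, a transcription factor downstream of calcineurin, also fell (log2 fold change -2.12, SE 0.43, adjusted p = 0.000192). RCAN1, a calcineurin target often read as a sign of its activity, had 11 counts with both compounds and 279 with sacubitrilat alone, a ratio of 0.474 (0.234 to 0.862, counting error only), and its difference between groups did not pass the test (log2 fold change -0.98, SE 0.43, adjusted p = 0.0679). It passed, as lower, without any 1 of the vehicle libraries (adjusted p up to 0.0402). Of the 14 lower genes 8 were lowest in the shallowest vehicle library.

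Immediate early genes did not move in 1 direction, with 3 higher and 4 lower of 21 tested. FOS had 34.4, 25.2 and 14.8 CPM with both compounds, against 6.61, 4.73 and 6.14 CPM with sacubitrilat alone (log2 fold change 2.06, SE 0.65, adjusted p = 0.0123), from 9 counts against 27. JUN, its partner in the AP-1 factor, had 45.8, 31.5 and 51.9 CPM with both compounds, against 110.2, 93.8 and 104 CPM with sacubitrilat alone (log2 fold change -1.21, SE 0.37, adjusted p = 0.00976). KLF6, a zinc finger factor, and BTG2, a growth-arrest gene, were lower too (log2 fold changes -1.22 ± 0.38 and -1.60 ± 0.51, ± SE, adjusted p = 0.0122 and 0.0141). FOS lost its call without replicate 1 or 2 with both compounds (adjusted p = 0.08 and 0.108), and JUN and BTG2 without replicate 2 (adjusted p = 0.0515 and 0.107). With libraries at 80000 counts 2 of these genes could be tested and 0 were called.

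Within the sarcomere, thick and thin filament genes each went both ways. Of 16 tested myosin and myosin-regulating genes 7 rose and 2 fell, with a median of 0.03, and at 80000 counts 6 rose and 1 fell of 14. The slow, beta form of the heavy chain, MYH7, had 4062, 2793 and 2201 CPM with both compounds, against 1253, 1043 and 1140.2 CPM with sacubitrilat alone. Each library with both compounds was above each sacubitrilat library (log2 fold change 1.44, SE 0.25, adjusted p = 3.02e-05), and the depth-matched log2 fold change was 1.66 (adjusted p = 8.05e-05). In the vehicle libraries MYH7 was 1559, 1113 and 1538 CPM, lowest in the shallowest one, which is the opposite of the order of most higher genes. MYH6, the fast alpha form, had 979.6, 608 and 674 CPM with both compounds, against 1137, 1053 and 1089 CPM with sacubitrilat alone, a difference that did not pass the test (log2 fold change -0.50, SE 0.22, adjusted p = 0.0701). It passed in 8 alternative fits, always as lower, including the one without replicate 1 with both compounds. Reads shared by MYH6 and MYH7, which are near-identical neighbours on the genome, are uncertain.

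Several myosin light chain genes rose. The atrial essential chain MYL4 had 20085, 9938 and 7629 CPM with both compounds, against 2056, 2088 and 2036 CPM with sacubitrilat alone (log2 fold change 2.64, SE 0.33, adjusted p = 8.22e-08). The ventricular essential chain MYL3 had 6015, 2374 and 1615 CPM with both compounds, against 762, 801 and 732 CPM with sacubitrilat alone (log2 fold change 2.13, SE 0.30, adjusted p = 5.39e-07). The smooth muscle and non-muscle regulatory chain MYL9 had 8009, 5082 and 5624 CPM with both compounds, against 1719, 1843 and 1754 CPM with sacubitrilat alone (log2 fold change 1.86, SE 0.26, adjusted p = 7.21e-07). MYLK3, the cardiac light chain kinase, rose (log2 fold change 1.35, SE 0.20, adjusted p = 1.66e-06). All 4 passed at 80000 counts as well, with log2 fold changes of 2.99, 2.54, 2.03 and 1.59. All 4 also had their highest vehicle level in the shallowest library, and MYL4 was 4645, 14417 and 7038 CPM in replicates 1 to 3. MYL7 and MYL2, the atrial and ventricular regulatory chains, did not pass (log2 fold change -0.29, SE 0.32, adjusted p = 0.497 for MYL7 and log2 fold change -0.77, SE 0.70, adjusted p = 0.407 for MYL2), and MYL2 rested on 4 counts with both compounds and 87 with sacubitrilat alone.

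Among thin filament genes 3 muscle actins fell, while the troponin genes TNNC1, TNNT2 and TNNI1 rose. ACTC1 (ENSG00000159251, chr15:34788095-34795726, minus strand, GRCh38) had 309, 775 and 629.9 CPM with both compounds, against 5744, 5031 and 6089 CPM with sacubitrilat alone. The groups lay far apart (log2 fold change -3.17, SE 0.42, adjusted p = 2.36e-07), and the depth-matched log2 fold change was -3.20 (adjusted p = 1.82e-05). ACTA1, the skeletal form that marks hypertrophy in rodent hearts, had 11.5, 113 and 59.3 CPM with both compounds, against 234, 249 and 287 CPM with sacubitrilat alone (log2 fold change -1.79, SE 0.32, adjusted p = 3.88e-05). ACTA2, the smooth muscle form, had 160.4, 167 and 215 CPM with both compounds, against 535, 517 and 502 CPM with sacubitrilat alone (log2 fold change -1.44, SE 0.27, adjusted p = 8.46e-05). All 3 actins were lowest in the shallowest vehicle library, and ACTC1 was 2360.1, 247 and 1559 CPM in replicates 1 to 3. Cardiac troponin C, TNNC1, had 8616, 4648 and 3787 CPM with both compounds, against 1253, 1392 and 1194 CPM with sacubitrilat alone (log2 fold change 2.18, SE 0.27, adjusted p = 6.03e-08). Cardiac troponin T, TNNT2, had 3743, 2008 and 1541 CPM with both compounds, against 1321, 1389 and 1303 CPM with sacubitrilat alone (log2 fold change 0.89, SE 0.25, adjusted p = 0.00476), but it lost its call without replicate 1 or 2 with both compounds (adjusted p = 0.152 and 0.0535). NEBL, a nebulin-family protein of the Z-disc end of the filament, had 34.4, 63.0 and 51.9 CPM with both compounds, against 311, 304 and 280.3 CPM with sacubitrilat alone (log2 fold change -2.42, SE 0.35, adjusted p = 1.09e-06). The troponin genes TNNI3 and TNNT1 did not pass (edgeR adjusted p = 0.084 and 0.544). Of the 15 tested genes 3 rose and 6 fell, with a median of -0.32, and at 80000 counts 3 rose and 5 fell of 12. Of the 3 higher genes 2 were highest in the shallowest vehicle library.

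**Figure D4:**
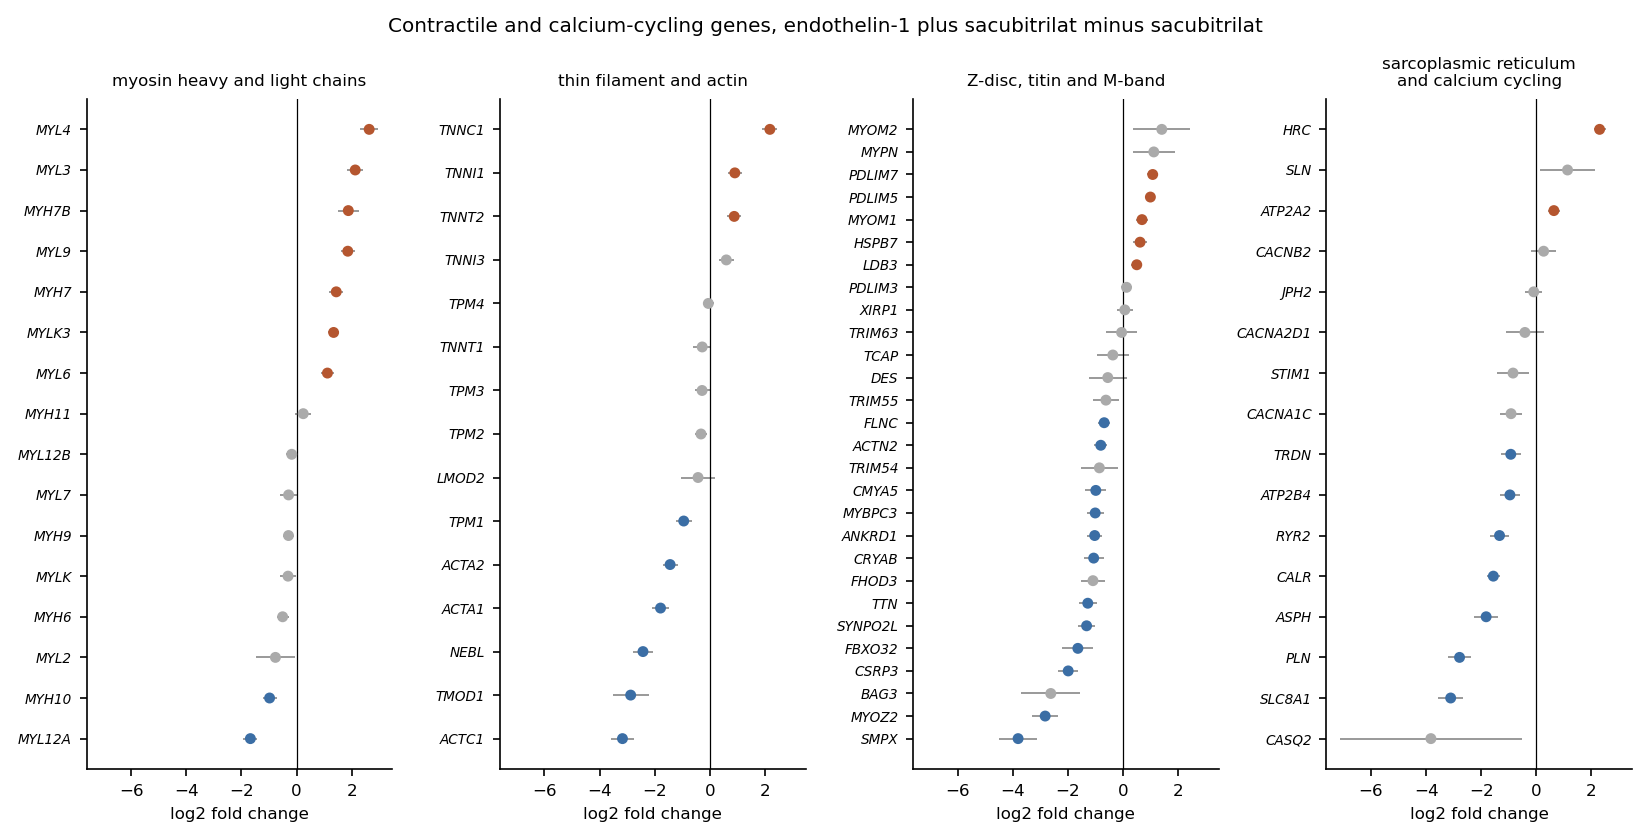
Log2 fold change with both compounds relative to sacubitrilat alone for the tested genes of 4 contractile and calcium lists, 1 of them not drawn, with bars of 1 SE, coloured where called higher (orange) or lower (blue) and grey where not called. Myosin light chains, TNNC1 and HRC lay highest, and ACTC1, SMPX, SLC8A1 and PLN were among the lowest called.

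At full depth Z-disc, titin and M-band genes fell more often than they rose, 12 lower and 6 higher of 29 tested, with a median of -0.68. With libraries at 80000 counts this imbalance was not seen, as 5 rose and 5 fell of 17. MYOZ2, which tethers calcineurin to alpha-actinin, had 11.5, 18.9 and 7.41 CPM with both compounds, against 101, 99.3 and 97.8 CPM with sacubitrilat alone (log2 fold change -2.83, SE 0.48, adjusted p = 1.9e-05). SMPX, a small stretch-responsive muscle protein, had 0, 6.30 and 7.41 CPM with both compounds, against 81.5, 75.7 and 81.4 CPM with sacubitrilat alone (log2 fold change -3.81, SE 0.70, adjusted p = 5.61e-05). TTN, the giant spring of the sarcomere, and ACTN2, the tagged alpha-actinin, fell too (log2 fold changes -1.28 ± 0.34 and -0.81 ± 0.24, ± SE, adjusted p = 0.00312 and 0.00756). The higher members included PDLIM7 and PDLIM5, adaptors of the Z-disc. PDLIM7 had 344, 491 and 823 CPM with both compounds, against 283, 294 and 279 CPM with sacubitrilat alone (log2 fold change 1.08, SE 0.19, adjusted p = 4.49e-05), a call lost without replicate 3 with both compounds (log2 fold change 0.52, adjusted p = 0.0931). PDLIM5 had 1123, 655 and 556 CPM with both compounds, against 381, 386 and 410.4 CPM with sacubitrilat alone (log2 fold change 0.99, SE 0.19, adjusted p = 6.79e-05). Of the 12 lower genes 11 were lowest in the shallowest vehicle library, while 1 of the 6 higher genes was highest there.

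Genes of calcium cycling showed the same mix. PLN, the brake of the sarcoplasmic calcium pump, had 34.4, 88.2 and 29.6 CPM with both compounds, against 375, 398 and 427 CPM with sacubitrilat alone, with no overlap (log2 fold change -2.79, SE 0.42, adjusted p = 2.2e-06). SLC8A1, the sodium-calcium exchanger, had 11.5, 6.30 and 37.1 CPM with both compounds, against 179, 155 and 170.5 CPM with sacubitrilat alone (log2 fold change -3.11, SE 0.44, adjusted p = 8.29e-07). RYR2, the calcium release channel, had 115, 69.3 and 51.9 CPM with both compounds, against 221, 181 and 188 CPM with sacubitrilat alone (log2 fold change -1.33, SE 0.33, adjusted p = 0.00171), which did not pass at 80000 counts (-0.96 (adjusted p = 0.0839)). The pump gene ATP2A2 had 791, 378 and 207 CPM with both compounds, against 298, 263 and 291 CPM with sacubitrilat alone, the groups overlapped, and its call as higher (log2 fold change 0.64, SE 0.23, adjusted p = 0.0263) was lost in 12 alternative fits, such as that without replicate 1 with both compounds (adjusted p = 0.796). HRC, a calcium-binding protein of the reticulum lumen, had 687, 327 and 252 CPM with both compounds, against 80.1, 76.5 and 90.1 CPM with sacubitrilat alone (log2 fold change 2.30, SE 0.22, adjusted p = 1.63e-10). CALR, calreticulin, had 309, 365 and 289 CPM with both compounds, against 944, 1091 and 977 CPM with sacubitrilat alone (log2 fold change -1.56, SE 0.23, adjusted p = 1.84e-06). Of 16 tested genes 7 fell and 2 rose, with a median of -0.92. All 7 lower genes were lowest in the shallowest vehicle library, where PLN had 0 counts, and at 80000 counts 3 fell and 1 rose of 8.

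Of 18 tested ion channel and junction genes 7 fell and 0 rose (median -0.50), and at 80000 counts 0 rose and 3 fell of 9. CDH2, N-cadherin of the intercalated disc, had 91.7, 139 and 59.3 CPM with both compounds, against 527, 448 and 490.5 CPM with sacubitrilat alone (log2 fold change -2.21, SE 0.29, adjusted p = 1.98e-07), and the desmosomal genes JUP and DSP fell with it (-1.38 ± 0.28 and -1.07 ± 0.24 on the log2 scale, adjusted p = 0.000215 and 0.000604). DSP lost its call in the second draw of 80000 counts (adjusted p = 0.098). KCNA5, an atrial potassium channel, had 1 count over the 3 libraries with both compounds, against 117 with sacubitrilat alone (ratio 0.103, counting interval 0.00258 to 0.584, adjusted p = 0.0118), and its call was lost without replicate 3 with both compounds (adjusted p = 0.0575). Among 21 cardiac transcription factors 5 fell and 3 rose, and at 80000 counts 1 rose and 4 fell of 6. GATA4 had 34.4, 56.7 and 44.5 CPM with both compounds, against 207, 209.7 and 222 CPM with sacubitrilat alone (log2 fold change -2.09, SE 0.32, adjusted p = 3.09e-06) and GATA6 11.5, 37.8 and 22.2 CPM with both compounds, against 166, 140.3 and 138 CPM with sacubitrilat alone (log2 fold change -2.40, SE 0.43, adjusted p = 3.76e-05). PPARA, a regulator of fatty acid use, had 103, 145 and 81.5 CPM with both compounds, against 38.2, 30.7 and 41.0 CPM with sacubitrilat alone and rose (log2 fold change 1.68, SE 0.29, adjusted p = 1.9e-05). GATA4 was among the lower genes that were not at their lowest in the shallowest vehicle library. Its vehicle values were 139, 86.6 and 82.0 CPM in replicates 1 to 3. Replicate 2, the shallowest, held 7 counts of it at 12.4 CPM per count, so its order against replicate 3 is uncertain.

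Targets of SRF, MRTF and YAP, factors that tie gene activity to actin dynamics and stretch, were among the lists with the most lower genes: 18 of 30 tested fell and 2 rose, with a median log2 fold change of -0.998. CCN2, connective tissue growth factor (ENSG00000118523, chr6:131948176-131951373, minus strand, GRCh38), had 0, 44.1 and 22.2 CPM with both compounds, against 252, 226 and 259.8 CPM with sacubitrilat alone. The 10 counts with both compounds and 1138 with sacubitrilat gave a ratio of 0.106 (0.0505 to 0.195, counting error only), with an edgeR log2 fold change of -3.15 (SE 0.39, adjusted p = 6.52e-08) and a depth-matched one of -3.20 (adjusted p = 0.000118). CNN1, a calponin that binds actin, had 68.7, 195 and 229.7 CPM with both compounds, against 694, 619 and 745 CPM with sacubitrilat alone (log2 fold change -1.88, SE 0.30, adjusted p = 6.74e-06). Its relative CNN3 had 34.4, 50.4 and 66.7 CPM with both compounds, against 242, 219 and 234 CPM with sacubitrilat alone (log2 fold change -2.06, SE 0.30, adjusted p = 1.21e-06). ZYX, zyxin of focal adhesions, fell (log2 fold change -1.94, SE 0.38, adjusted p = 0.000121), as did the cytoplasmic actin ACTG1 (log2 fold change -1.24, SE 0.22, adjusted p = 4.29e-05). The members that rose were MYL9 and FLNA, filamin A (log2 fold change 0.77, SE 0.19, adjusted p = 0.00153). At 80000 counts 10 fell and 2 rose of 18. Of the 18 lower genes 14 were lowest in the shallowest vehicle library, and the sums of the 6 fibroblast and the 4 smooth muscle markers above were lower as well, whereas the sum of the 12-gene smooth muscle list was higher. Their part was not tested.

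Promoters of 4 lower genes, ACTG1 and CCN2 of this list and ACTC1 and ACTA1 of the thin filament list, are shown because they hold the letters these factors are known to bind: the CArG box of SRF, and GGAATG on either strand, the core of the MCAT element bound by the TEAD partners of YAP. Each is the 250 bases before the RefSeq gene start (GRCh38.p14), 5′ to 3′ on the gene's strand, with motif matches in capitals; no 2 matches overlap. They are ACTC1 (chr15:34795550-34795799, minus strand), ACTA1 (chr1:229434095-229434344, minus strand), ACTG1 (chr17:81512800-81513049, minus strand) and CCN2 (chr6:131951373-131951622, minus strand).
ACTC1: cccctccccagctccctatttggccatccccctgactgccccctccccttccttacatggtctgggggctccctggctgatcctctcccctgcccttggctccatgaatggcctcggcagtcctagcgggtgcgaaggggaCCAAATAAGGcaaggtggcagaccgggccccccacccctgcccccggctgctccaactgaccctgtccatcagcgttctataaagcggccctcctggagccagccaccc
ACTA1: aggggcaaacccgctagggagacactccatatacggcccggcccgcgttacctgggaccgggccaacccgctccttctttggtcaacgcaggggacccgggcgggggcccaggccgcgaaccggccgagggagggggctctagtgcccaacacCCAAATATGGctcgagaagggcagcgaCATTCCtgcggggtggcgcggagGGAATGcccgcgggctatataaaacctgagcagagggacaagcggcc
ACTG1: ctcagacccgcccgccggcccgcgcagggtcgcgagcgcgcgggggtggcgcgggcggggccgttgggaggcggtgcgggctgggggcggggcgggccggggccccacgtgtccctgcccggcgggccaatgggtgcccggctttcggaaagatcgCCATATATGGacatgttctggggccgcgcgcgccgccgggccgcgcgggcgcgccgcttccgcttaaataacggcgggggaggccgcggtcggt
CCN2: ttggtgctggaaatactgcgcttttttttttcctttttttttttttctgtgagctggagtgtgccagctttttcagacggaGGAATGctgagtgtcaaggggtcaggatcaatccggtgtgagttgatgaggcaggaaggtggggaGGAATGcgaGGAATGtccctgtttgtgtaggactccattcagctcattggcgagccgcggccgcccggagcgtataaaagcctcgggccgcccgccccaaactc
A CArG box began 109 bases before the ACTC1 start, 97 before ACTA1 and 94 before ACTG1, and ACTA1 also held 2 MCAT matches. CCN2 held no CArG box and 3 MCAT matches, at 169, 104 and 95 bases. Of the 31 genes of the SRF, MRTF and YAP list 23 had a promoter in the table; 5 of the 23 (21.7%) held a CArG box and 7 (30.4%) an MCAT match, against 1.18% and 9.26% of 8322 tested genes with a promoter. The list was drawn up from known targets of these factors, so this share describes the list and not the change. Of its 5 genes with a CArG box, ACTG1 and CNN2 fell, FLNA rose, and FHL2 and FILIP1L did not pass (adjusted p = 0.169 and 0.0549). Among all tested genes 33 of 1601 lower genes (2.06%) and 13 of 1124 higher genes (1.16%) held a CArG box. The MCAT shares were near equal, 163 of the lower genes (10.2%) and 109 of the higher genes (9.70%). These are matches of letters, not bound sites.

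Genes of transforming growth factor signalling went both ways. TGFB1 had 206, 271 and 504 CPM with both compounds, against 63.2, 58.3 and 47.1 CPM with sacubitrilat alone, all 3 libraries with both compounds above all 3 with sacubitrilat (log2 fold change 2.69, SE 0.23, adjusted p = 3.22e-11), with a depth-matched value of 2.49 (adjusted p = 0.000548). LTBP4, which holds the latent ligand in the matrix, had 699, 712 and 748 CPM with both compounds, against 244, 253 and 246 CPM with sacubitrilat alone (log2 fold change 1.62, SE 0.16, adjusted p = 6.75e-10). ID2, a target of the related BMP signal, had 11.5, 28.3 and 22.2 CPM with both compounds, against 129, 121 and 122 CPM with sacubitrilat alone (log2 fold change -2.47, SE 0.43, adjusted p = 2.38e-05). ID3, a target of the same signal, had 91.7, 37.8 and 44.5 CPM with both compounds, against 191, 169.5 and 199.7 CPM with sacubitrilat alone (log2 fold change -1.75, SE 0.31, adjusted p = 3.41e-05). TGFB2, another ligand of the family, fell (log2 fold change -2.15, SE 0.65, adjusted p = 0.00909). Of 24 tested genes 3 rose and 7 fell (median -0.59), and at 80000 counts 2 rose and 4 fell of 12. The 3 higher genes were each highest in the shallowest vehicle library, and TGFB1 was 158, 210.3 and 129 CPM in replicates 1 to 3.

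Collagen genes were lower with both compounds, 14 of 24 tested against 1 higher, with a median of -1.22, and at 80000 counts 1 rose and 8 fell of 13. COL6A1, a chain of microfibrillar collagen VI (ENSG00000142156, chr21:45981737-46005050, plus strand, GRCh38), had 0, 37.8 and 29.6 CPM with both compounds, against 335, 300.4 and 387 CPM with sacubitrilat alone. Its groups were far apart (log2 fold change -3.62, SE 0.37, adjusted p = 1.14e-09), and at 80000 counts the log2 fold change was -3.54 (adjusted p = 2.01e-05). COL6A2, another chain of collagen VI, moved the other way and was the 1 list member called higher (log2 fold change 1.03, adjusted p = 0.000138). SERPINH1, the collagen chaperone, had 160.4, 119.7 and 185 CPM with both compounds, against 679, 551 and 695 CPM with sacubitrilat alone (log2 fold change -1.99, SE 0.24, adjusted p = 3.22e-08). COL5A2 had 34.4, 75.6 and 74.1 CPM with both compounds, against 269.5, 237 and 272 CPM with sacubitrilat alone (log2 fold change -1.91, SE 0.30, adjusted p = 3.9e-06), and the cross-linking enzyme gene LOXL1 had 1 count with both compounds, against 351 with sacubitrilat alone (ratio 0.0343, counting interval 0.000865 to 0.192, adjusted p = 9.57e-06). Without the 2 shallowest libraries 15 of 26 fell and 2 rose. Of the 14 lower collagen genes 9 were lowest in the shallowest vehicle library. The whole list summed to 7590, 3711 and 6112 CPM in vehicle replicates 1 to 3, again lowest in the shallowest. The fibroblast list fell beside them, 7 of 13 tested lower and 2 higher, led by VIM with 367, 611 and 482 CPM with both compounds, against 1642, 1577 and 1666 CPM with sacubitrilat alone (log2 fold change -1.63, SE 0.26, adjusted p = 6.78e-06) and including DCN, decorin (log2 fold change -2.16, SE 0.41, adjusted p = 9.87e-05), while S100A4 rose (log2 fold change 1.46, SE 0.32, adjusted p = 0.000492). Of the 7 lower genes of the fibroblast list 6 were lowest in the shallowest vehicle library. The part of fibroblasts and that of depth in the collagen result were not tested.

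Of 31 matricellular, laminin and elastic fibre genes 13 fell and 5 rose, and at 80000 counts 4 rose and 5 fell of 17. Of the 13 lower genes 10 were lowest in the shallowest vehicle library. VCAN, the proteoglycan versican, had 103, 151 and 88.9 CPM with both compounds, against 656, 604 and 618 CPM with sacubitrilat alone (log2 fold change -2.33, SE 0.30, adjusted p = 1.46e-07). LAMC1, a laminin chain, had 22.9, 75.6 and 22.2 CPM with both compounds, against 255, 253 and 266 CPM with sacubitrilat alone (log2 fold change -2.45, SE 0.33, adjusted p = 2.72e-07). TGFBI, a collagen-binding matrix protein, had 34.4, 44.1 and 22.2 CPM with both compounds, against 152, 141 and 153 CPM with sacubitrilat alone (log2 fold change -2.04, SE 0.34, adjusted p = 1.09e-05). MFAP2, a microfibril protein, had 997, 485 and 345 CPM with both compounds, against 206, 215 and 216 CPM with sacubitrilat alone and rose (log2 fold change 1.48, SE 0.21, adjusted p = 6.01e-07). The epicardial list had 5 lower and 1 higher of 11, with ALDH1A2 at 0 counts with both compounds, and the endoderm list 8 higher and 0 lower of 11 (median 3.20), all 8 highest in the shallowest vehicle library.

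Genes of mitochondrial respiration went both ways. Their counts at full depth are to be read against 17.2% higher and 17.8% lower among all tested genes. Among 38 nuclear genes of complex I 12 rose and 5 fell, with a median of -0.08. NDUFV1, which carries the site of NADH oxidation, had 2177, 869 and 845 CPM with both compounds, against 195, 171 and 168 CPM with sacubitrilat alone (log2 fold change 2.84, SE 0.24, adjusted p = 2.28e-11). NDUFS8, an iron-sulphur subunit, had 527, 592 and 674 CPM with both compounds, against 212, 192 and 184 CPM with sacubitrilat alone (log2 fold change 1.71, SE 0.16, adjusted p = 1.76e-10). NDUFS5, an accessory subunit, had 1169, 1209 and 1530.2 CPM with both compounds, against 457, 434 and 421 CPM with sacubitrilat alone (log2 fold change 1.65, SE 0.18, adjusted p = 5.84e-09). At 80000 counts 10 of 20 rose and 0 fell. Of the 12 that rose 10 were highest in the shallowest vehicle library, and NDUFV1 was 359.7, 1385 and 580.2 CPM in replicates 1 to 3. For complexes II to IV the counts were 5 higher and 6 lower of 25 (at 80000 counts 5 rose and 0 fell of 19), with UQCRC1 and COX8A higher (1.17 ± 0.16 and 0.80 ± 0.19 on the log2 scale). COX8A lost its call without replicate 3 with both compounds (adjusted p = 0.052). For ATP synthase they were 2 higher and 7 lower of 18 (at 80000 counts 1 rose and 4 fell of 16), with ATP5F1D higher (log2 fold change 1.59, SE 0.17, adjusted p = 2.05e-09) and its natural inhibitor ATP5IF1 lower (log2 fold change -1.65, SE 0.33, adjusted p = 0.000178).

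The mitochondrial genome's own transcripts moved both ways, 2 higher and 3 lower of 15 (at 80000 counts 5 rose and 3 fell of 15). MT-CO3, a subunit of cytochrome oxidase, had 4431, 5167 and 5083 CPM with both compounds, against 15268, 15083 and 17269 CPM with sacubitrilat alone (log2 fold change -1.63, SE 0.30, adjusted p = 7.14e-05). MT-ATP8 had 24934, 16153 and 6914 CPM with both compounds, against 3058, 3821 and 2810 CPM with sacubitrilat alone (log2 fold change 2.34, SE 0.34, adjusted p = 1.53e-06); it overlaps MT-ATP6, so reads shared by both are uncertain. MT-ND6, encoded on the other strand of the mitochondrial genome, had 103, 375 and 245 CPM with both compounds, against 22.0, 34.7 and 56.8 CPM with sacubitrilat alone (log2 fold change 2.81, SE 0.39, adjusted p = 4.96e-07). Mitochondrial ribosomal protein genes were 10 higher and 7 lower of 71, below the share of all tested genes in both directions, and at 80000 counts 6 rose and 0 fell of 9.

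Among fuel genes 7 of 24 for fatty acid use, 12 of 27 for glycolysis and 7 of 25 for serine synthesis and ATF4 targets were called, against 35% of all tested genes. Among fatty acid genes 5 rose and 2 fell (median 0.45), and at 80000 counts 3 rose and 0 fell of 5. LPL, lipoprotein lipase, had 34.4, 50.4 and 29.6 CPM with both compounds, against 4.41, 3.94 and 6.66 CPM with sacubitrilat alone (log2 fold change 2.96, SE 0.59, adjusted p = 0.000174). ETFDH, which passes electrons from fatty acid oxidation to the respiratory chain, had 172, 90.2 and 81.5 CPM with both compounds, against 33.3, 36.3 and 33.4 CPM with sacubitrilat alone (log2 fold change 1.70, SE 0.31, adjusted p = 4.9e-05), and ACADM, the medium-chain dehydrogenase, fell (log2 fold change -2.44, SE 0.64, adjusted p = 0.00295). FABP3, the cardiac fatty acid-binding protein, had 223, 189 and 144 CPM with both compounds, against 108, 93.0 and 135 CPM with sacubitrilat alone (log2 fold change 0.77, SE 0.25, adjusted p = 0.0153), with calls lost as given below. In glycolysis 6 rose and 6 fell, and at 80000 counts 4 rose and 1 fell of 17. GAPDH had 20431, 15988 and 19102 CPM with both compounds, against 5081, 5493 and 4944 CPM with sacubitrilat alone (log2 fold change 1.89, SE 0.30, adjusted p = 5.69e-06). The muscle enolase ENO3 had 401, 356 and 422 CPM with both compounds, against 158, 157 and 151 CPM with sacubitrilat alone (log2 fold change 1.40, SE 0.19, adjusted p = 5.51e-07). GAPDH was 10740.5, 20124 and 13733 CPM in the vehicle libraries and so highest in the shallowest, while ENO3 was 289, 186 and 223 CPM and lowest there. Serine synthesis and ATF4 target genes were lower in 7 of 25 and higher in 0 (at 80000 counts 0 rose and 0 fell of 4), among them the amino acid transporter SLC7A5 (log2 fold change -2.04, SE 0.46, adjusted p = 0.000646) and MTHFD2 of mitochondrial folate metabolism (log2 fold change -1.49, SE 0.40, adjusted p = 0.00394); 1 of the 7 was lowest in the shallowest vehicle library.

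At full depth more protein folding and turnover genes fell than rose. Of 25 chaperones of the endoplasmic reticulum 12 fell and 1 rose (median -0.74), and at 80000 counts 1 rose and 6 fell of 15. The list included SEC61B of the translocon at 22.9, 53.5 and 25.9 CPM with both compounds, against 132, 136 and 135 CPM with sacubitrilat alone (log2 fold change -1.79, SE 0.35, adjusted p = 0.000128) and the disulphide isomerase PDIA4 at 11.5, 88.2 and 74.1 CPM with both compounds, against 201, 187 and 218 CPM with sacubitrilat alone (log2 fold change -1.55, SE 0.31, adjusted p = 0.000183). Of these 12, 4 were lowest in the shallowest vehicle library. Of 26 cytosolic heat shock genes 11 fell and 4 rose, and at 80000 counts 2 rose and 3 fell of 14. HSPB1, a small heat shock protein, had 401, 734 and 826 CPM with both compounds, against 1759.7, 1718 and 1825 CPM with sacubitrilat alone (log2 fold change -1.32, SE 0.28, adjusted p = 0.000315), whereas the stress-induced HSPA1A and HSPA1B, near-identical copies whose reads cannot be fully separated, rose (2.96 ± 0.51 and 1.68 ± 0.31 on the log2 scale). Proteasome and ubiquitin genes were 12 lower and 1 higher of 38, led by PSMD3 (log2 fold change -1.93, SE 0.35, adjusted p = 5.39e-05), but at 80000 counts 0 rose and 1 fell of 20, with a median log2 fold change of 0.05. Lysosomal genes went both ways, 8 higher and 7 lower of 28, and at 80000 counts 4 rose and 1 fell of 9. CTSD, cathepsin D, had 951, 617 and 748 CPM with both compounds, against 226, 230.2 and 207 CPM with sacubitrilat alone (log2 fold change 1.84, SE 0.18, adjusted p = 5.34e-10). PSAP, the precursor of the saposins, had 126, 183 and 267 CPM with both compounds, against 470.4, 413 and 457 CPM with sacubitrilat alone (log2 fold change -1.09, SE 0.22, adjusted p = 0.000175).

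Of 38 spliceosome and RNA-binding genes 21 were lower and 2 higher at full depth (median -0.81), with 10 of the 21 lowest in the shallowest vehicle library. At 80000 counts 1 rose and 6 fell of 26, a lower share (23.1%) near that of all genes tested there (18.8%). HNRNPC, a nuclear protein that packages transcripts, had 109, 96.5 and 88.9 CPM with both compounds, against 319, 291 and 368 CPM with sacubitrilat alone (log2 fold change -1.67, SE 0.26, adjusted p = 3.87e-06). HNRNPA1, a regulator of splice site choice, had 188, 219 and 263 CPM with both compounds, against 627, 597 and 679 CPM with sacubitrilat alone (log2 fold change -1.40, SE 0.23, adjusted p = 7.99e-06). The cardiac splicing regulator RBFOX2 had 68.7, 145 and 148 CPM with both compounds, against 331, 319 and 367 CPM with sacubitrilat alone (log2 fold change -1.33, SE 0.25, adjusted p = 8.47e-05). Of 79 cytosolic ribosomal protein genes 27 fell and 12 rose (median -0.33), and at 80000 counts 12 rose and 16 fell of 79. RPL39, of the large subunit, rose with 7260.1, 5272 and 5209 CPM with both compounds, against 1292, 1302 and 1209 CPM with sacubitrilat alone (log2 fold change 2.27, SE 0.25, adjusted p = 3.58e-09). RPL41, of the same subunit, had 7822, 5356 and 4657 CPM with both compounds, against 1332, 1321 and 1365 CPM with sacubitrilat alone (log2 fold change 2.20, SE 0.26, adjusted p = 2.14e-08). This family has many pseudogene copies, so its counts are uncertain. CDKN1A, the p53 target and cell cycle inhibitor p21, had 68.7, 113 and 104 CPM with both compounds, against 331, 305 and 361 CPM with sacubitrilat alone (log2 fold change -1.66, SE 0.29, adjusted p = 2.73e-05). CDK4, a kinase of the G1 phase, had 45.8, 50.4 and 51.9 CPM with both compounds, against 164, 202 and 190 CPM with sacubitrilat alone (log2 fold change -1.81, SE 0.32, adjusted p = 3.1e-05). GDF15, a stress-induced hormone of the same list as CDKN1A, rose (log2 fold change 1.38, SE 0.42, adjusted p = 0.00971) but lost its call without replicate 1 or 3 with both compounds (adjusted p = 0.0513 and 0.123). Of the long noncoding RNAs kept in the nucleus, MALAT1 had 813, 1392 and 1034 CPM with both compounds, against 8223, 6873 and 7099 CPM with sacubitrilat alone (log2 fold change -2.68, SE 0.36, adjusted p = 3.27e-07) and NEAT1, the scaffold of paraspeckles, had 2796, 1707 and 1375 CPM with both compounds, against 709.9, 694 and 699 CPM with sacubitrilat alone (log2 fold change 1.52, SE 0.23, adjusted p = 2.58e-06).

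The largest decreases among genes that passed in both fits with no overlap were NPPB, IGFBP3, COL6A1, CAP2, LMNB2, CIAO2B, BEX1, NREP, ACTC1, CCN2, SLC8A1 and SLIT2. IGFBP3, a carrier of insulin-like growth factors, had 11.5, 31.5 and 29.6 CPM with both compounds, against 358, 341 and 377 CPM with sacubitrilat alone (log2 fold change -3.69, SE 0.34, adjusted p = 8.58e-11). CAP2, an actin-recycling protein of heart and muscle, had 11.5, 25.2 and 14.8 CPM with both compounds, against 192, 186 and 205 CPM with sacubitrilat alone (log2 fold change -3.32, SE 0.41, adjusted p = 6.37e-08). LMNB2, a lamin of the nuclear envelope, had 11.5, 0 and 29.6 CPM with both compounds, against 154, 119 and 144 CPM with sacubitrilat alone (log2 fold change -3.32, SE 0.48, adjusted p = 9.75e-07). SLIT2, an axon guidance ligand, had 0, 37.8 and 22.2 CPM with both compounds, against 195, 197 and 228 CPM with sacubitrilat alone (log2 fold change -3.05, SE 0.42, adjusted p = 4.99e-07). Of 336 such lower genes 79 were not at their lowest in the shallowest vehicle library. CIAO2B, which serves iron-sulphur cluster assembly, was the largest of the 79 (log2 fold change -3.29, SE 0.45, adjusted p = 3.54e-07), and its vehicle levels were 44.2, 86.6 and 70.3 CPM. The value of 86.6 CPM, in the shallowest library, rested on 7 counts at 12.4 CPM per count, so this order is uncertain. Among genes with 0 counts in all 3 libraries with both compounds, the 6 with the most counts with sacubitrilat alone were ANP32E (212 counts), PXDC1 (208), TRO (179), SCYL2 (177), ZCCHC3 (155) and ITGB1BP1 (153). Taken against 3 counts summed over the group, ANP32E, a histone chaperone that removes H2A.Z, was at least 5.88-fold lower with both compounds and ITGB1BP1 at least 4.24-fold lower.

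The largest increases by the same rule were PIGR, XACT, EPCAM, IGKC, ZNF121, ZNF321P, BORCS7-ASMT, AS3MT, LGALS4, PHGR1, AP3S2 and HYCC2, with log2 fold changes of 3.84 for PIGR and 3.56 for ZNF121. Their counts per library differed little between the groups: ZNF121 had 122, 149 and 130 counts with both compounds, against 113, 143 and 176 counts with sacubitrilat alone. XACT, a noncoding RNA of the X chromosome in pluripotent cells, had 15, 19.5 and 16 counts with both compounds, against 8.9, 8.3 and 27.7 counts with sacubitrilat alone. BORCS7-ASMT and AS3MT overlap on the genome and share reads. Of 398 higher genes that passed in both fits with no overlap, 101 were not at their highest in the shallowest vehicle library. They included PITPNM1, a phosphatidylinositol transfer protein (log2 fold change 2.34, SE 0.21, adjusted p = 4.38e-11), SYNPO, an actin-bundling protein (log2 fold change 2.05, SE 0.18, adjusted p = 4.38e-11), LAMB2, a laminin chain (log2 fold change 1.76, SE 0.17, adjusted p = 1.76e-10), ACTN1, the non-muscle alpha-actinin (log2 fold change 1.51, SE 0.23, adjusted p = 2.07e-06), CTSD, ENO3, NEAT1 and MYH7.

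Set beside endothelin-1 without the inhibitor, most calls pointed the other way. That comparison (endothelin-1 minus vehicle, no library in common with the one above) called 2596 of 11203 genes (23.2%), 1231 (11%) higher and 1365 (12.2%) lower, and its depth order was reversed: the endothelin-1 libraries held 8.75 times as many counts as the vehicle libraries. Of 1740 genes called in both comparisons 34 moved in the same direction and 1706 in opposite directions. NPPB was 564, 568 and 547 CPM with endothelin-1, against 119.9, 24.7 and 82.0 CPM with vehicle, a log2 fold change of 2.62 (adjusted p = 5.22e-10), where it had fallen when endothelin-1 was added to sacubitrilat. ACTC1 (1.80), CCN2 (2.40), PLN (1.85) and COL6A1 (0.87) likewise had positive log2 fold changes without the inhibitor and negative ones with it. The difference between the 2 effects of endothelin-1 passed the test for 5163 genes (46.1%), 2255 (20.1%) with a positive and 2908 (26%) with a negative difference. Since depth and treatment go together in both comparisons, with opposite order, this difference cannot be told apart from one of depth.

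A set of 5 genes moved the same way in both comparisons, at full depth and at 80000 counts: MYH7, NEAT1, FABP3 and HSPG2 rose, and IGFBP5 fell. At 80000 counts 341 genes were called in both comparisons, 5 in the same direction and 336 in opposite directions. MYH7 had a log2 fold change of 1.44 with sacubitrilat and 1.22 (adjusted p = 0.000472) without it, and NEAT1 1.52 and 0.79 (adjusted p = 0.0097). That of FABP3 was 0.77 with sacubitrilat and 1.69 (adjusted p = 5.21e-07) without it. That of HSPG2, the basement membrane proteoglycan perlecan, was 0.59 and 1.28 (adjusted p = 1.07e-06). MYH7 was 3323, 3033 and 3095 CPM with endothelin-1, against 1559, 1113 and 1538 CPM with vehicle. Among the libraries with both compounds MYH7 was highest in the shallowest, and the part of depth in its calls was not tested. IGFBP5, another growth factor carrier, had 183, 271 and 185 CPM with both compounds, against 624, 684 and 649 CPM with sacubitrilat alone (log2 fold change -1.50, SE 0.21, adjusted p = 9.36e-07), and 218, 193 and 220.1 CPM with endothelin-1 alone, against 470.1, 421 and 586 CPM with vehicle, a log2 fold change of -1.19 (adjusted p = 3.3e-06). Without any 1 of the 3 libraries with both compounds the calls of FABP3 and HSPG2 were lost in the comparison with sacubitrilat (adjusted p up to 0.229 and 0.219), and a second draw of 80000 counts also lost that of FABP3 (adjusted p = 0.595). These directions rest on the titles: if the last description line named the true groups, the libraries called endothelin-1 here would be the sacubitrilat ones, and the log2 fold changes against them would be -0.13 for MYH7 (adjusted p = 0.7), 0.10 for NEAT1 (adjusted p = 0.749), -0.70 for FABP3 (adjusted p = 0.0114), -0.56 for HSPG2 (adjusted p = 0.0122) and 0.023 for IGFBP5 (adjusted p = 0.948). Under the same exchange NPPB (-3.60), ACTC1 (-3.12) and CCN2 (-4.16) would still be lower. At full depth further genes rose in both, among them the matrix proteoglycan BGN (0.82 with sacubitrilat, 0.74 without), the myosin heavy chain MYH7B (1.88 and 1.16), AGT and ENO3. BGN lost its call without any 1 of the 3 libraries with both compounds (adjusted p = 0.0561 to 0.24), and MYH7B without replicate 1 (log2 fold change 0.77, adjusted p = 0.205). Genes that fell in both included TNC, tenascin C (-1.35 with sacubitrilat, -0.92 without), SFRP5, a secreted WNT antagonist whose call was lost at 80000 counts (-1.09 and -0.95), FTH1, the ferritin heavy chain, whose call was lost in 11 alternative fits (-0.93 and -1.20), and DUT, which clears dUTP (-1.46 and -0.82).

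**Figure D5:**
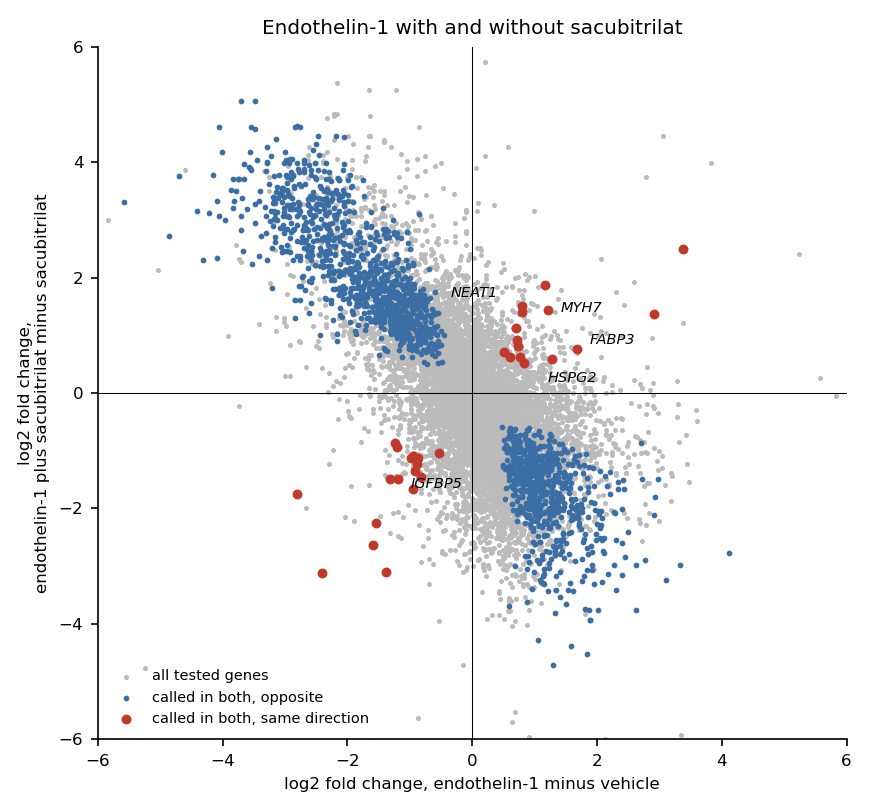
Log2 fold change of endothelin-1 added to sacubitrilat (vertical) against endothelin-1 minus vehicle (horizontal) for the tested genes, with 163 genes outside the drawn range of 6 on the log2 scale. Of 1740 genes called in both, 1706 lay in the opposite quadrants (blue) and 34 in the same ones (red); the 5 that held at 80000 counts are named.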

How the data were processed

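Per the labels' protocols, poly(A) RNA was primed with a barcoded oligo that also holds a molecular identifier, and the tagmented 3′-end libraries were stranded and read from 1 end. The submitters' processing notes name fastp 0.24.0 for trimming, featureCounts for counting and GRCh38 as the build. Which aligner and annotation were used, and whether identifiers and strand entered the counts, is not given in the sources used here. The deposited values are estimated counts per gene (79.0% of values above 0 were whole within 1e-06) and CPM, which the authors computed as the share of the library total. Counts were rounded for the tests, and 92 spike-in features with 0 counts were left out.

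All 12 libraries entered 1 edgeR 4.0.16 quasi-likelihood fit (TMM scaling, filterByExpr, group as the sole term, Benjamini-Hochberg threshold 0.05, R 4.3.3), which kept 11203 of 78986 features; the SE was taken from the log2 fold change and the F statistic. With 3 libraries per group an exact permutation test of 1 value cannot go below p = 0.1, so p-values come from this fit. On simulated data the fit recovered 21.1%, 59.7% and 77.5% of genes changed 2-, 4- and 8-fold, and 4.35% of its calls were false. The simulated libraries shared 1 composition apart from these changes, so they did not cover composition that moves with depth. Replicate numbers did not pair the libraries: the 18 pairs that share a number had correlations of -0.146 to 0.0396 between their deviations from the group means. A group at 0 counts was bounded with a floor of 3 counts over the group; ratio intervals are exact 95% intervals for counting error only. Alternatives were RLE scaling, other filters, DESeq2 1.42.0, limma-voom 3.58.1, a replicate block, thinning to 80000 counts, fewer libraries or features, and exchanged labels.

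The members and the 46 gene lists (1169 of 1171 genes matched by symbol, 1030 tested) were chosen with earlier results of these data known. Named genes were a panel of 20, the 12 largest changes in each direction called in the full and thinned fits with no overlap and at least 30 thinned counts, up to 4 called members per list by p, up to 10 in each direction called alike with and without sacubitrilat, and up to 6 with 0 counts in 1 group. PRKG1, NPR1, TNNI3, TNNT1, TTN, ACTN2, TGFB2, COL6A2, ZYX, ACTG1, FLNA, CNN2, FHL2, FILIP1L, PITPNM1, SYNPO, LAMB2 and ACTN1 were named after their values were seen. Results of some named genes are not reported here. Gene positions are from GENCODE 29 and promoters from RefSeq, both on GRCh38. Figures were drawn with matplotlib 3.10.9.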

Additional observations from a re-analysis of the deposited data

Results flagged for a closer look

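For 17 of the 20 panel genes the effect of endothelin-1 with sacubitrilat differed from its effect without it (edgeR interaction test, adjusted p under 0.05, all 12 libraries). On the log2 scale, effect with the inhibitor minus effect without it, the difference was -6.38 for NPPB, -5.55 for CCN2, -4.64 for PLN, -4.37 for EDN1, -3.996 for CDKN1A, -3.69 for EDNRA, -3.56 for ACTA2, -3.56 for NPPA, -3.41 for MYL2, -2.47 for RCAN1, -2.35 for RYR2, -2.31 for ACTA1, -1.49 for MYL7 and -0.82 for MYH6. It was positive for TGFB1 (3.84), TNNT2 (1.34) and ATP2A2 (0.86). Over all tested genes 46.1% passed this test, with a median difference of -0.43. The shallow libraries were those with both compounds in one comparison and those with vehicle in the other, so depth and the difference cannot be told apart.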

How the results depend on the processing

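Depth limits these results: with both compounds 1 count was worth 6.30 to 11.5 CPM, so absence of a low gene there is not shown. Of 3925 genes called (1929 higher, 1996 lower), 1351 (722 higher, 629 lower) were called with a mean of at least 50 counts, 801 (453, 348) at 80000 counts and 804 (448, 356) in a second draw, where 2969, 1853 and 1815 genes could be tested; with no filter 3389 were lower. The same 3 settings gave 992, 447 and 455 genes for endothelin-1 minus vehicle (main 2596) and 1587, 950 and 945 for the difference between the effects (main 5163). Leaving out each library in turn gave 2816 to 5068 genes (1399 to 2091 higher, 1288 to 3154 lower), 1812 to 2871 for endothelin-1 minus vehicle and 3718 to 6084 for the difference; without vehicle replicate 1 3154 were lower and without sacubitrilat replicate 3 1288. The numbers tested were 14076 and 7228, and the cause was not tested. The replicate block gave 3643 calls (1814 higher, 1829 lower); among named genes it ended the calls of NPPA and ATP2A2. The other settings kept these counts within 1.5 times.

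Of 5142 values of named genes under the alternatives 4916 kept direction and side of the threshold, 198 lost the call, 17 gained it and 11 reversed, all 11 with exchanged labels: BGN -0.13, CRYAA -1.89, ENO3 -0.16, FABP3 -0.70, HSPG2 -0.56, MYH7 -0.13, PPM1K -0.15, IGFBP5 0.023, PSAT1 0.11, SFRP5 0.23 and TNC 0.11. Of 216 tested named genes 140 kept direction and call in every setting run for them. The cause of the lost calls was not tested.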

Other observations

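Classes of transcripts differed beside the named genes. Of 926 tested long noncoding RNAs 428 were higher and 49 lower with both compounds (median log2 fold change 1.33), and of 317 pseudogenes 177 were higher and 15 lower (median 1.62), against 1267 higher and 1929 lower of 9855 protein-coding genes (median -0.36). Long noncoding RNAs took 9.22% to 10.9% of counts with both compounds, against 5.35% to 5.63% with sacubitrilat alone. Within the vehicle group their share was 7.60%, 10.1% and 8.04%, highest in the shallowest library. The 2 mitochondrial ribosomal RNAs took 1.59% to 3.54% of counts with both compounds, against 4.14% to 4.77% with sacubitrilat alone.

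Other lists are given by their counts, to be read against 17.2% higher and 17.8% lower among all tested genes. Among MHC class I and interferon genes 5 rose and 3 fell of 17. IFITM3, an antiviral membrane protein, had 160.4, 422 and 532 CPM with both compounds, against 1027, 939.6 and 954 CPM with sacubitrilat alone (log2 fold change -1.23, SE 0.26, adjusted p = 0.000374). Among ferritin and NRF2 target genes 4 rose and 4 fell of 22: GPX4, which clears lipid peroxides, rose (log2 fold change 1.02, SE 0.17, adjusted p = 1.01e-05) and PRDX1, a peroxiredoxin, fell (log2 fold change -1.57, SE 0.22, adjusted p = 4.48e-07). Of 17 hypoxia genes 2 rose and 3 fell: P4HA1, a collagen prolyl hydroxylase, fell (log2 fold change -1.84, SE 0.42, adjusted p = 0.000807) and BNIP3, a mitophagy receptor, fell (log2 fold change -2.97, SE 0.70, adjusted p = 0.00113), while the glucose transporter gene SLC2A1 rose (log2 fold change 1.26, SE 0.28, adjusted p = 0.000545; adjusted p = 0.0524 without replicate 3 with both compounds and 0.069 in the second draw of 80000 counts). Of 33 cell cycle and replication genes 1 rose and 9 fell, and of 13 histone genes 1 rose and 4 fell. The replication helicase gene MCM4 had 332, 119.7 and 111 CPM with both compounds, against 39.8, 45.7 and 51.2 CPM with sacubitrilat alone (log2 fold change 1.93, SE 0.38, adjusted p = 0.000167), and H4C3, a histone H4 gene, had 1799, 1020.2 and 1630.2 CPM with both compounds, against 461, 427 and 409 CPM with sacubitrilat alone (log2 fold change 1.82, SE 0.24, adjusted p = 2.04e-07); in the vehicle libraries they were 85.2, 594 and 182 CPM and 868, 2437 and 1178 CPM, highest in the shallowest library for each. The numbers higher and lower were 4 and 11 of 34 translation factors (at 80000 counts 4 rose and 3 fell of 31), 3 and 7 of 27 p53 targets and CDK inhibitors, 3 and 3 of 20 citric acid cycle genes, 1 and 2 of 14 creatine kinase and ATP shuttle genes, and 2 and 2 of 23 sterol synthesis genes. They were 4 and 5 of 18 nuclear-retained long noncoding RNAs, 2 and 3 of 13 ventricular and atrial markers, 1 and 3 of 12 smooth muscle markers, 1 and 0 of 3 endothelial markers, and 1 and 1 of 5 pluripotency and neural markers.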
